A study of Mus musculus with 6 samples.

Results

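The genes of the basement membrane and of the collagen matrix were examined in the RNA-seq of cultured mouse granulosa cells (GCs) treated with media or with dihydrotestosterone (DHT), an androgen that is not converted to estrogen. The members were the genes of the deposited table whose symbol names a collagen chain, a laminin chain, a nidogen, perlecan (*Hspg2*), agrin (*Agrn*), fibronectin (*Fn1*), elastin (*Eln*), a fibrillin, a lysyl oxidase, a collagen prolyl 4-hydroxylase or a lysyl hydroxylase. They were 67 of the 16300 genes in the table. One of them, *Col4a3bp*, matched by its name only and encodes a ceramide transporter, which left 66 matrix genes.

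Both groups were GCs of wild type C57BL/6J mice aged 8 to 9 weeks, with 3 libraries per group and the cells of 5 mice pooled in each library. The DHT libraries came from cells given 25 nM DHT for 24 h, and the control libraries from cells given media alone. All cells had been cultured for 48 h in medium with 10% serum and then kept for 4 h without serum, so every value describes cells in culture and not in the follicle. The labels name granulosa cells as the cell type but speak of whole ovary in the extraction text and of DHT in the treatment text of every library. The groups were taken from the separate treatment characteristic. Whether same-numbered libraries came from the same isolation was not stated, and the p-values measure the spread between these libraries only.

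A basement membrane is a thin sheet of extracellular matrix. Its laminins are trimers of 1 alpha, 1 beta and 1 gamma chain, and its collagen IV is a trimer of alpha chains that are cross-linked into a network. Nidogens and perlecan bind both networks. In the ovarian follicle, such a sheet lies between the GC layer and the theca, and GCs are known to make part of it. Fibrillar collagens and elastic fibres, by contrast, belong to the interstitial matrix of the theca and stroma. Prolyl and lysyl hydroxylases modify collagen chains inside the cell, and lysyl oxidases cross-link collagen and elastin outside it.

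The recovered reads summed to between 36111177 and 41928585 per library. The GC markers *Foxl2*, *Inha*, *Nr5a1* and *Esr2* were present in every library, at 2194 to 2588, 32271.5 to 60095, 5081 to 6043 and 4071 to 5719 normalized counts. *Fshr* and *Amh* of the same list stood far lower, at 135 to 168 and 63.3 to 196. *Amhr2* stood at 1805 to 2393, *Inhba* at 36157 to 46969 and *Hsd17b1* at 5460 to 9079. Among the 10 GC markers listed, *Cyp19a1* was not among the genes analysed here, 1 of the 9 measured was higher in DHT (*Hsd17b1*) and 3 were lower (*Inha*, *Esr2* and *Foxl2*), at an adjusted p of at most 0.05 in limma. Of all genes tested, 6.52% were higher and 4.66% lower by the same rule. The theca markers *Cyp17a1*, *Insl3* and *Hhip* were not among the genes analysed, and the 3 measured of 6 did not pass the test. Of these, *Ptch1* stood at 2172 to 2773 normalized counts, *Nr2f2* at 1296 to 1578 and *Gli1* at 12.1 to 33.8. The endothelial markers *Pecam1*, *Cdh5* and *Kdr* had 26.9 to 74.0 normalized counts. The stromal fibroblast markers, 4 measured of 6, summed to at most 499 normalized counts in any library, the highest being control replicate 1. The oocyte list summed to 359 to 898 in control and to 634, 44.7 and 674 in DHT replicates 1, 2 and 3. None of the genes of these last 3 lists passed the test. Of the macrophage and leukocyte markers, *Csf1r* was lower in DHT and the other 3 measured of 6 did not pass, and none of the 5 markers of the ovarian surface epithelium did.

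In bulk libraries, a change in RNA per cell and a change in the share of a cell type cannot be told apart. Of the 6 smooth muscle and pericyte markers, *Rgs5* was not among the genes analysed, and *Acta2*, *Myh11*, *Cnn1* and *Cspg4* of the 5 measured were higher in DHT, as were 6.52% of all genes. Their list summed to between 4735 and 6926 normalized counts in control and between 8858 and 10450 in DHT. Its part in the results on matrix genes was not tested.

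The pairs of collagen IV genes are shown first. These 6 genes lie head to head in 3 pairs, *Col4a1* with *Col4a2* on chromosome 8, *Col4a3* with *Col4a4* on chromosome 1 and *Col4a5* with *Col4a6* on the X chromosome. In the GENCODE annotation of GRCm38, the starts of the pairs were 21, 72 and 1309 bases apart. The RefSeq promoter table for GRCm38.p6, with 250 bases before and 50 bases after each start, held an entry for 45 of the 67 members. *Col4a3*, *Lama1*, *Nid2*, *Fn1* and *Loxl3* had none. The windows of 5 of the collagen IV genes and both windows of *Col18a1*, the member with the largest rise, are given 5′ to 3′ on the strand of the gene. Capitals mark GGGCGG and CCAAT on either strand (as CCGCCC and ATTGG on the opposite one).
Col4a1 (minus strand, chr8:11312777-11313076): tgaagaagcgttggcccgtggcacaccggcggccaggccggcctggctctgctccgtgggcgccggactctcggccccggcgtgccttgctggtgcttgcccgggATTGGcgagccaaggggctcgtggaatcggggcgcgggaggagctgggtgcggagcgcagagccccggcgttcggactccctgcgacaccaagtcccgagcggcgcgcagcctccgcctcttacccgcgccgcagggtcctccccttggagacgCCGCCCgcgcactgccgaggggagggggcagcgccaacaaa
Col4a2 (plus strand, chr8:11312555-11312854): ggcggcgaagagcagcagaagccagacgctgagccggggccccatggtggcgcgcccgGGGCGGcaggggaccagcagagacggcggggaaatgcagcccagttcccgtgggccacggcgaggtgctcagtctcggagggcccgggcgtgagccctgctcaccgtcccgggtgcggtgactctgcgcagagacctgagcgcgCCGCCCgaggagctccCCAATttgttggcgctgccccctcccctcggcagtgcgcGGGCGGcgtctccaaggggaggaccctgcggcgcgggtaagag
Col4a4 (minus strand, chr1:82586800-82587099): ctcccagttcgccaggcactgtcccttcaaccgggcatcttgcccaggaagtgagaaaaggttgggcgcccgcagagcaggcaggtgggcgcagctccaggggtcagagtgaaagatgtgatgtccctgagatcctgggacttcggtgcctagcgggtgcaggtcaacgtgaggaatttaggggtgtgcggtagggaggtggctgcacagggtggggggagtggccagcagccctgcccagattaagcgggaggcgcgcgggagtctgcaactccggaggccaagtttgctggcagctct
Col4a5 (plus strand, chrX:141475169-141475468): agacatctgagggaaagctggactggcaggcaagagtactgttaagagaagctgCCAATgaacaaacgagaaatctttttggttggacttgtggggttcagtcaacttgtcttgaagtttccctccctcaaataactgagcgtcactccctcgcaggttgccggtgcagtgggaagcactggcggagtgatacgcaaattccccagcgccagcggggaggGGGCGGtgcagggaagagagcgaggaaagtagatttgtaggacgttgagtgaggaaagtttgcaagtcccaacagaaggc
Col4a6 (minus strand, chrX:141474027-141474326): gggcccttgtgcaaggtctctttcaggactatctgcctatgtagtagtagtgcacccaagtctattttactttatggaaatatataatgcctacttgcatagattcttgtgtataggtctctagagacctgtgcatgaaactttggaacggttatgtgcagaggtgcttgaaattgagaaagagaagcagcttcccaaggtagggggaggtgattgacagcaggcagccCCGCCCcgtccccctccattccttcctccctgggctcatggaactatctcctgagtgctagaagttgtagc
Col18a1, upstream start (minus strand, chr10:77166481-77166780): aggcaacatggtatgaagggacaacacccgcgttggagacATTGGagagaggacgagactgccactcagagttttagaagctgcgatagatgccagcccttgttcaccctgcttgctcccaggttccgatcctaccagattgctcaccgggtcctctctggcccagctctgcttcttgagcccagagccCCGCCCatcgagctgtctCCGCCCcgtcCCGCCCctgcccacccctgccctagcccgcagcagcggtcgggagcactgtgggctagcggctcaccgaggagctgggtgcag
Col18a1, downstream start (minus strand, chr10:77113656-77113955): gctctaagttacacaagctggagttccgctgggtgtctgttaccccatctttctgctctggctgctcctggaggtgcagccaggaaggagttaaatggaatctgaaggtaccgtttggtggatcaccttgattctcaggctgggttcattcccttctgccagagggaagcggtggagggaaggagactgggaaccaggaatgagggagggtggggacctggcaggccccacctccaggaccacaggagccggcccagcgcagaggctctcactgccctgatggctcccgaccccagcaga

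The *Col4a1* and *Col4a2* windows shared 78 bases, which held 1 GGGCGG. Both windows were rich in G and C, at 74.0% and 73.7%, with *Col4a4* at 63.3%, *Col4a5* at 52.7% and *Col4a6* at 48.3%. The median was 61% over the member windows and 52.7% over all windows. The upstream window of *Col18a1* held 3 GGGCGG and 1 CCAAT, and the downstream window held neither. Counting reads per gene does not say which start was used.

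GGGCGG on either strand stood in 35 of the 49 windows of members (71.4%). It stood in 35.7% of all 32851 windows in the table and in 60.3% of those of genes in the deposited table. CCAAT stood in 30.6% of the member windows and in 37.4% of all windows and 37.7% of those of genes in the deposited table. AGAACA on either strand, which is 1 arm of the androgen response element, stood in 3 member windows (6.12%), those of *Col20a1*, *Lama2* and *Lamb3*, in 19.0% of all windows and in 12.7% of those of genes in the deposited table. None of these 3 genes passed the test. The full pair of arms, AGAACA and TGTTCT with 3 bases between, stood in 3 of all windows and in no member window. These counts describe letters in 300 bases and say nothing of binding.

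**Figure D1:**
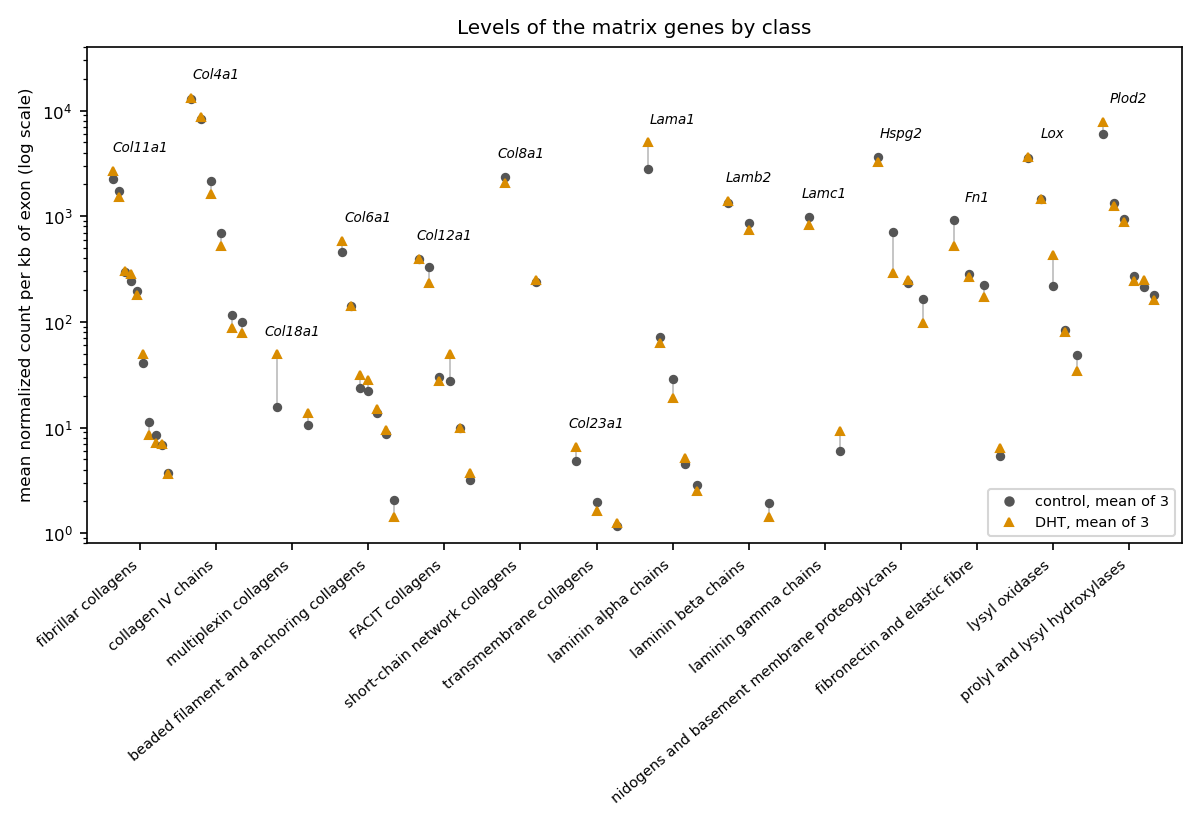
Mean normalized count per kb of exon (log scale) of 65 matrix genes in control (grey circles) and DHT (orange triangles), 3 libraries each, by class, with the highest member of each class named. *Col4a1* stood highest at 12907 in control, and the levels spanned over 4 powers of 10, down to 1.18 for *Col25a1*.

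Levels were compared between genes as normalized counts per kb of exon. In control cells the most abundant members were *Col4a1* (12907 ± 112 per kb; SD, n = 3) and *Col4a2* (8396 ± 96.8), the chains of the common collagen IV trimer. The lysyl hydroxylase gene *Plod2* came next (5954 ± 631). The control ranges of these 3 genes did not overlap. The order depended on the length used: with the longest transcript of each gene, an alternative chosen after the values were seen, *Plod2* stood at 8764 ± 929 and *Col4a2* at 8616 ± 99.3, and their ranges overlapped. *Hspg2* (3668 ± 248), *Lox* (3521 ± 939), *Lama1* (2801 ± 517), *Col8a1* (2361 ± 399.7), *Col11a1* (2251 ± 419) and *Col4a5* (2147 ± 131) followed, and each of these overlapped the next one named. With the longest transcript, *Col11a1* (3742) stood above *Hspg2* (3699). Below *Plod2*, most neighbours in the order of the 67 levels overlapped in the same way.

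The laminin chains with the highest levels were *Lama1*, *Lamb2* (1325 per kb) and *Lamc1* (994), with *Lamb1* (854) close to *Lamc1*. With the longest transcript as length, *Lamb1* stood at 1465 and *Lamb2* at 1432, with overlapping control ranges. Of the alpha chain transcripts per kb in control, *Lama1* made up 96.2% ± 0.569, *Lama5* 2.54% ± 0.362 and *Lama4* 0.999% ± 0.185 (SD, n = 3). The fibrillar collagens were led by *Col11a1* and *Col5a2* (1719 per kb), both minor chains of collagen fibrils in many tissues. *Col1a1* stood at 197 per kb and *Col1a2*, its partner in the collagen I trimer, at 40.4, a ratio of 4.89. With the longest transcript as length they stood at 218 and 93.8, a ratio of 2.33. *Col3a1* stood at 245. *Col11a1* and *Col5a2* together made up most of the fibrillar collagen transcripts per kb, at 47.0% and 36.0%, against 4.13% for *Col1a1* and 0.852% for *Col1a2*. The share of *Col1a2* was 1.29% with the longest transcript as length, and that of *Lama4* among the alpha chains 1.94%.

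The question of the design was which of these genes differed between DHT and control GCs. All 67 members had a mean of at least 10 normalized counts and were tested with the other genes. A gene was taken as higher or lower at an adjusted p of at most 0.05 in limma, adjusted by Benjamini-Hochberg over 16292 genes, and called at an absolute log2 fold change above 1 as well. All fold changes are on the scale of log2(normalized count + 1), as DHT over control. Of the members, 6 were higher (8.96%) and 11 were lower (16.4%) in DHT, while 6.52% of all genes tested were higher and 4.66% were lower. With the fold threshold, 1 member was called higher and 1 called lower, against 0.908% and 0.399% of all genes. The groups did not overlap for 29 members (43.3%), and for 30.6% of all genes. In 10 of the 29 every DHT library was the higher and in 19 the lower, or 14.9% and 28.4% of the members. The corresponding shares of all genes were 15.9% and 14.7%.

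The higher members were *Col18a1*, *Loxl3*, *Lama1*, *Col9a2*, *Plod2* and *Col7a1*. The lower members were *Nid2*, *Fn1*, *Nid1*, *Lama4*, *Col16a1*, *Col4a6*, *Col4a5*, *Col4a4*, *Fbn1*, *Col4a3* and *Lamc1*. The median log2 fold change of the 67 members was 0.01, and that of all genes -0.01. *Loxl3* at 0.97 and *Nid2* at -1.28 were the members nearest to either side of an absolute log2 fold change of 1, and *Fn1* at -0.80 came next among the lower ones.

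**Figure D2:**
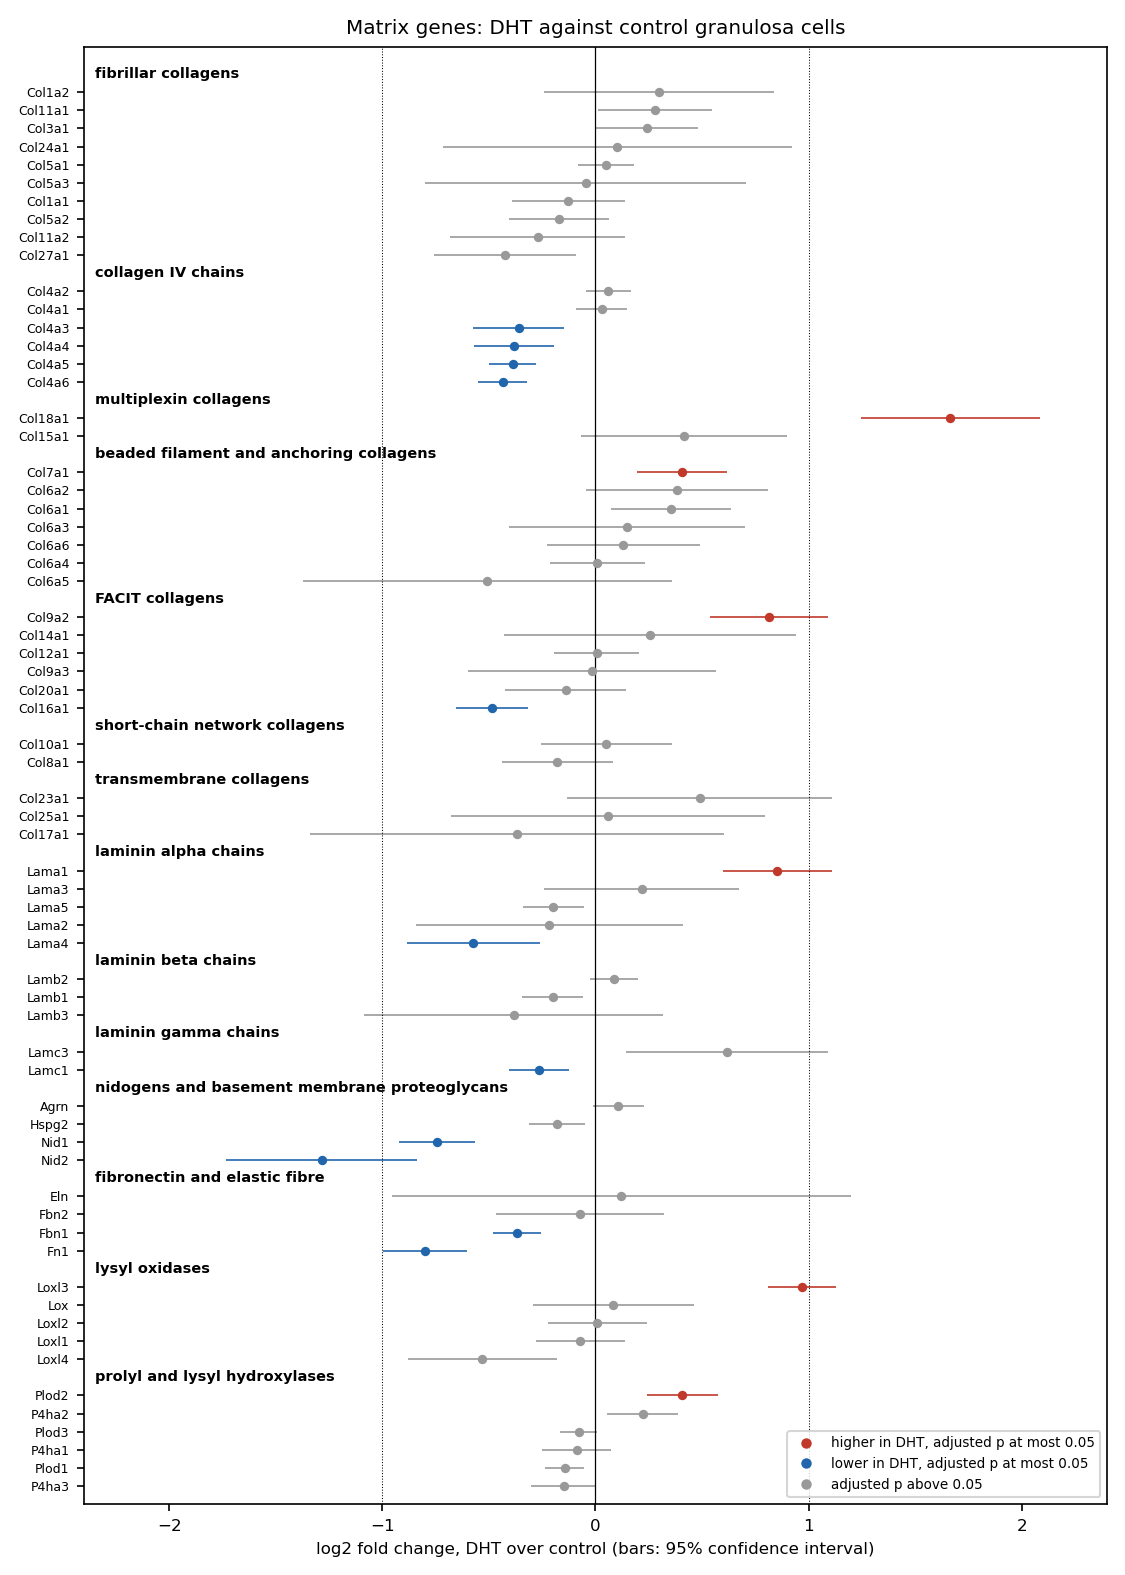
Log2 fold change (DHT over control) of 65 matrix genes by class, with 95% confidence intervals from limma; red and blue points had an adjusted p of at most 0.05, and dotted lines mark an absolute log2 fold change of 1. The 4 lower collagen IV chains lie together between -0.44 and -0.36, apart from *Col4a1* and *Col4a2* at 0.03 and 0.06 (-0.13 and 0.02 after quantile normalization).

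Of the 6 collagen IV chains, 4 were lower in DHT (66.7%, against 4.66% of all genes) and 2 did not pass. *Col4a1* had 95644, 97261 and 96100.4 normalized counts in the control replicates 1, 2 and 3 and 92649.7, 100199 and 102280 in the DHT replicates. *Col4a2* had 55346, 56293 and 55072 in control and 54882, 59474 and 59678 in DHT. For both genes the DHT libraries lay on either side of the control libraries. Their log2 fold changes were 0.03 (95% confidence interval -0.09 to 0.15; adjusted p = 0.787) and 0.06 (-0.05 to 0.17; adjusted p = 0.478, limma). The sign for *Col4a1* depended on the scaling: after quantile normalization its log2 fold change was -0.13 (adjusted p = 0.0834, limma), and that of *Col4a2* 0.02.

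The other 4 chains were lower in DHT without overlap. *Col4a5*, whose chain joins those of *Col4a3* and *Col4a4* or that of *Col4a6* in trimers of specialised basement membranes, had 15119.6, 13435 and 14715 normalized counts in control and 10656, 11204 and 11158 in DHT. It fell by 0.39 on the log2 scale (SE 0.05, adjusted p = 0.0014 in limma). *Col4a6* had 5723, 5280.2 and 5758 in control and 4184, 4323 and 3891 in DHT. Its fall of 0.44 (SE 0.05, adjusted p = 0.00098, limma) was of like size. Both X-linked genes stood higher per kb than the pair on chromosome 1.

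*Col4a4* had 1123, 1202 and 1347 normalized counts in control and 959, 1007 and 849 in DHT (log2 fold change -0.38 ± 0.08 (SE), adjusted p = 0.0194, limma). *Col4a3* had 884, 978 and 1143 in control and 804, 809 and 716 in DHT (log2 fold change -0.36 ± 0.09 (SE), adjusted p = 0.0405, limma). For both genes the nearest control and DHT libraries stood close to each other. The *Col4a3* call was lost without any one library but control replicate 1 (adjusted p 0.0584 to 0.1502 in limma), and the *Col4a4* call without control replicate 2 (0.0512) or DHT replicate 3 (0.0744). Both calls were also lost without the intensity trend (0.139 for *Col4a3* and 0.0948 for *Col4a4*). With the replicate number as a block in limma they were lost as well (0.1105 and 0.0702).

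The shares of the pairs, computed from the same counts and so not a separate result, stood apart in the groups. *Col4a1* and *Col4a2* together made up 87.0, 88.2 and 87.0% of the collagen IV transcripts per kb in the control libraries and 90.1, 90.4 and 90.8% in the DHT libraries. *Col4a5* and *Col4a6* made up 11.7 ± 0.687% in control and 8.90 ± 0.298% in DHT (mean ± SD of 3 libraries). The log2 ratio of *Col4a5* to *Col4a1* per kb was -2.59 ± 0.102 in control and -3.01 ± 0.0382 in DHT (SD, n = 3), without overlap (exact permutation test, two-sided, p = 0.1). An exact test of 3 against 3 libraries cannot give less than 0.1, and none of the 48 shares, ratios and totals tested in this way could pass 0.05 (smallest adjusted value 0.171). The total collagen IV per kb overlapped between the groups, at 24366 ± 37.7 in control and 24267 ± 1115 in DHT. Within the pairs, the log2 ratio of *Col4a1* to *Col4a2* per kb was 0.616, 0.616 and 0.630 in the control libraries and 0.582, 0.579 and 0.604 in the DHT libraries, lower in each of them by a small step (exact permutation test, p = 0.1). The ratio of *Col4a3* to *Col4a4* and that of *Col4a5* to *Col4a6* overlapped between the groups.

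**Figure D3:**
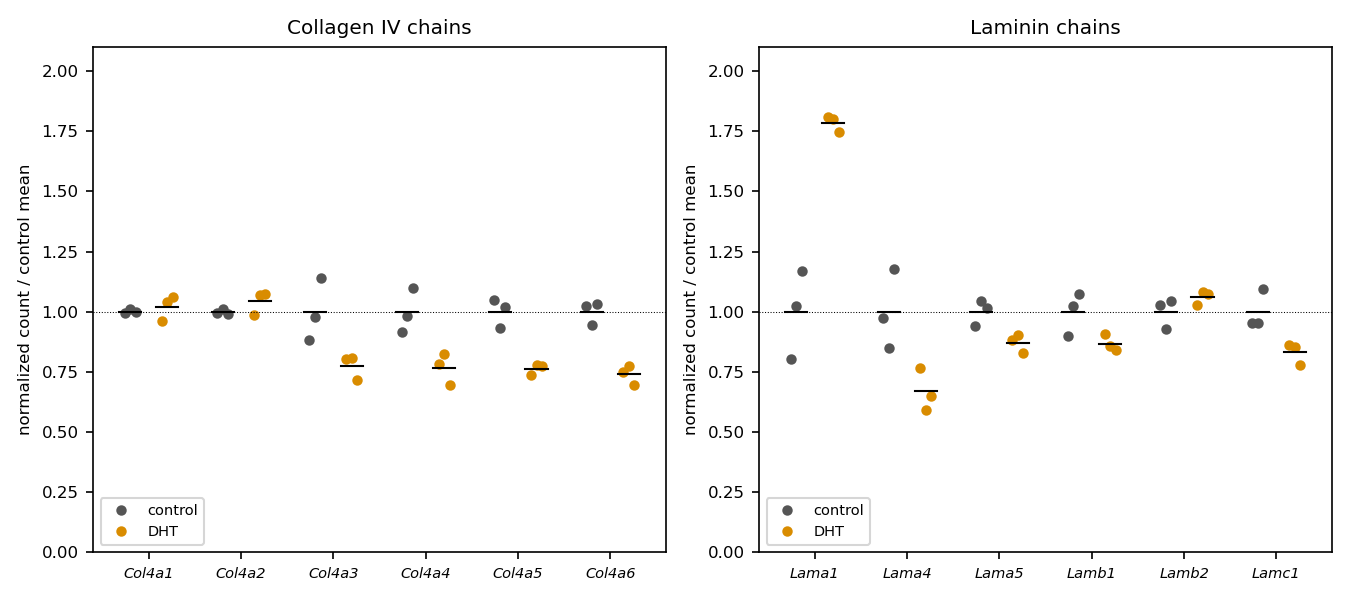
Normalized count of each library divided by the control mean of the same gene, for the 6 collagen IV chains (left) and the 6 laminin chains discussed most (right); short lines are means of 3 libraries. *Col4a3* to *Col4a6* lie lower in every DHT library, and *Lama1* stands at 1.79 times its control mean.

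Laminin chains did not move together. *Lama1*, the alpha chain of laminin-111, had 21795, 27807 and 31740.1 normalized counts in control and 49013, 48855 and 47406 in DHT. The 3 DHT libraries agreed closely, while control replicate 1 was the lowest of its group. The mean was 1.79 times as high in DHT (log2 fold change 0.85 ± 0.11 (SE), adjusted p = 0.00165, limma), and the log2 fold change lay between 0.70 and 0.98 in all alternatives. *Lama4*, an alpha chain typical of vessels and stroma, had 337, 294 and 407 in control and 265, 205 and 224 in DHT (log2 fold change -0.57 ± 0.14 (SE), adjusted p = 0.0297, limma). Its call was lost without control replicate 1 (adjusted p = 0.0640), control replicate 3 (0.0538), DHT replicate 2 (0.114) or DHT replicate 3 (0.107) in limma, and without the intensity trend (0.104). *Lama5* had 778, 862 and 840.2 in control and 731, 747 and 685 in DHT, without overlap, but did not pass the test (adjusted p = 0.082, limma). *Lama2* and *Lama3* stayed at or below 60.4 normalized counts in every library and did not pass.

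*Lamc1*, the gamma chain of most laminins, had 7823, 7851 and 8995 normalized counts in control and 7099, 7019 and 6411 in DHT. It fell by 0.26 on the log2 scale (SE 0.06, adjusted p = 0.0276, limma), and the call was lost without DHT replicate 2 (adjusted p = 0.0699), DHT replicate 3 (0.109) or the intensity trend (0.129). The call was also lost with the replicate number as a block in limma (0.0969). *Lamb1* had 7636, 8670.2 and 9114 in control and 7679.6, 7253 and 7130.3 in DHT, where DHT replicate 1 exceeded control replicate 1 (adjusted p = 0.0791, limma; lower at 0.0198 in DESeq2, 0.0483 after quantile normalization and 0.00849 without control replicate 1). *Lamb2* had 8292, 7476 and 8412 in control and 8276, 8713 and 8648 in DHT, with overlap (adjusted p = 0.328, limma). *Lamc3* and *Lamb3* were low, with at most 66.5 normalized counts in any library, and did not pass.

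The ratio of *Lama1* to its partner chains was higher in every DHT library. The log2 ratio of *Lama1* to *Lamc1* per kb was 1.25, 1.60 and 1.59 in the control libraries and 2.56, 2.57 and 2.66 in the DHT libraries. That of *Lama1* to *Lamb1* was 1.70 ± 0.144 in control and 2.75 ± 0.0406 in DHT (SD, n = 3). Neither overlapped (exact permutation test, p = 0.1 for each). The total of the alpha chains was 2909 ± 522 per kb in control and 5092 ± 95.3 in DHT, and that of the beta chains 2182 ± 107 and 2148 ± 15.1. The alpha total was higher in every DHT library, and the beta totals overlapped. *Lama1* made up 96.2% of the alpha total in control and 98.2% in DHT.

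The nidogens, which link laminin to collagen IV, were both lower in DHT. *Nid2* had 2993, 3095 and 4928 normalized counts in control and 1829.9, 1445 and 1195 in DHT. Control replicate 3 stood far above the other control libraries, yet every DHT library lay under all of them. Its log2 fold change was -1.28 ± 0.20 (SE, adjusted p = 0.0037, limma), and -1.05 without control replicate 3. The call was lost in limma without the intensity trend (adjusted p = 0.0555). *Nid1* had 1103, 1152 and 1153 in control and 649.8, 770.2 and 625 in DHT (log2 fold change -0.74 ± 0.08 (SE), adjusted p = 0.000558, limma). *Nid1* fell to 0.60 and *Nid2* to 0.406 times the control mean, but their ratio overlapped between the groups (exact permutation test, p = 0.3).

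*Hspg2*, the gene of the heparan sulfate proteoglycan perlecan, had 49379.8, 51695 and 56358 in control and 47510.4, 47095 and 44070.5 in DHT. The DHT libraries were all the lower, but the difference of -0.18 (95% confidence interval -0.31 to -0.05) did not pass (adjusted p = 0.0823, limma). *Hspg2* passed in 3 alternatives, with an adjusted p of 0.0300 after quantile normalization, 0.0144 in DESeq2 and 0.0427 in limma without control replicate 1. *Agrn*, the other basement membrane proteoglycan, had 2179, 2025 and 2248 in control and 2197, 2402 and 2348 in DHT, and overlapped (adjusted p = 0.25, limma). The total of the 4 genes was 4773 ± 464 per kb in control and 3867 ± 187 in DHT, without overlap (SD, n = 3; exact permutation test, p = 0.1).

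The multiplexins, collagens of basement membranes whose tails are cut off as fragments such as endostatin, held the largest rise. *Col18a1*, the source of endostatin, had 114, 80.8 and 136 normalized counts in control and 354, 298 and 386 in DHT. Every DHT library exceeded the highest control library by more than the whole control range. Its log2 fold change was 1.67 ± 0.19 (SE, adjusted p = 0.000691, limma), with a 95% confidence interval of 1.24 to 2.09. It was a minor member even so, at 15.7 per kb in control and 49.3 in DHT. *Col15a1*, its paralog, had 53.4, 91.1 and 54.7 in control and 83.2, 86.2 and 89.2 in DHT, and did not pass (adjusted p = 0.267, limma; 0.0463 without control replicate 2, where it passed).

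**Figure D4:**
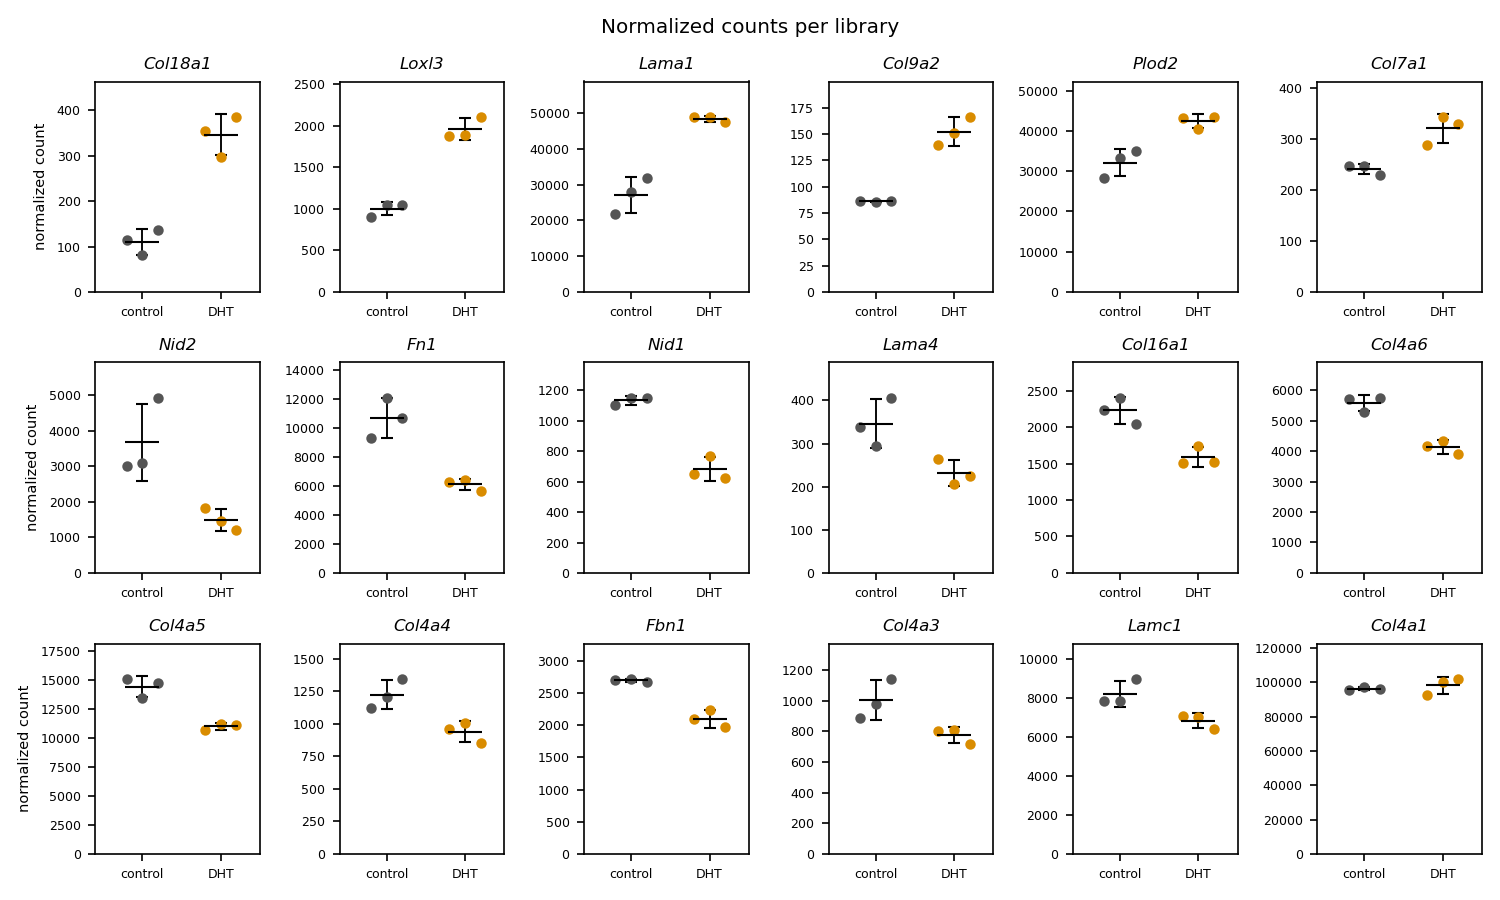
Normalized counts in the 3 control (grey) and 3 DHT (orange) libraries for the 17 members that passed the test and for *Col4a1*; horizontal lines are means and bars the SD. In each of the 17 the groups do not overlap, from *Col18a1* (mean 110 in control and 346 in DHT) to *Lamc1* (8223 and 6843), whereas those of *Col4a1* do.

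None of the 10 fibrillar collagens passed, while 6.52% of all genes were higher and 4.66% lower. *Col11a1* had 22524, 31525 and 32014 normalized counts in control and 34864, 35355 and 32912 in DHT, *Col11a1* being higher in each DHT library (log2 fold change 0.28, 95% confidence interval 0.01 to 0.54, adjusted p = 0.179, limma). Control replicate 1 was well under the other 2 control libraries, and the log2 fold change was 0.11 without it. *Col5a2* had 13464, 17469 and 18518 in control and 15196, 14497 and 13843 in DHT (log2 fold change -0.17, 95% confidence interval -0.40 to 0.06, adjusted p = 0.345, limma; 0.00699 without control replicate 1). Its neighbour *Col3a1* on chromosome 1, at a distance of 24.6 kb, had 1966, 2766 and 2477 in control and 2847, 2934 and 2658 in DHT, with overlap.

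The chains of collagen I differed in level but neither passed. *Col1a1* had 1063, 1343 and 1479 normalized counts in control and 1083, 1315 and 1135 in DHT (adjusted p = 0.553, limma). *Col1a2* had 438, 689 and 378 in control and 444, 773 and 618 in DHT (adjusted p = 0.491, limma). Both overlapped between the groups, and *Col1a2* varied more within each. As shares of the fibrillar transcripts per kb, *Col11a1* was 47.0 ± 1.12% in control and 53.4 ± 0.229% in DHT, and *Col5a2* 36.0 ± 0.776% and 29.9 ± 0.792% (SD, n = 3). Neither share overlapped (exact permutation test, p = 0.1 for each). *Col27a1*, *Col11a2*, *Col24a1* and *Col5a3* had at most 160.3 normalized counts in any library, and their log2 fold changes ran from -0.42 to 0.10.

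Among the 7 collagens of beaded filaments and anchoring fibrils, *Col7a1* was higher (14.3%, against 6.52% of all genes). This gene, whose collagen VII forms the anchoring fibrils under basement membranes, had 248, 247 and 229.7 normalized counts in control and 289.6, 345 and 329.7 in DHT (log2 fold change 0.41 ± 0.09 (SE), adjusted p = 0.0253, limma). The call was lost without control replicate 2 (adjusted p = 0.0571 in limma), DHT replicate 2 (0.116), DHT replicate 3 (0.103) or the intensity trend (0.0548). It was also lost with the replicate number as a block in limma (0.0801). *Col6a1* had 1603, 2253 and 2171 in control and 2870.1, 2349.8 and 2431 in DHT, higher in every DHT library but not past the threshold (adjusted p = 0.11, limma; 0.0143 in DESeq2, where it passed). *Col6a2*, which lies 85.2 kb from it on chromosome 10, had 134, 241 and 176 in control and 214, 240 and 245 in DHT (adjusted p = 0.249, limma; 0.0469 without control replicate 2). *Col6a3*, the remaining chain of the usual collagen VI trimer, was low, with 99.9, 139 and 73.2 in control and 98.8, 144 and 97.9 in DHT (adjusted p = 0.759, limma).

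The 6 FACIT collagens, which attach to the surface of fibrils, gave 1 change in each direction. Each was 16.7% of the class, against 6.52% of all genes higher and 4.66% lower. *Col9a2* had 86.1, 85.5 and 86.2 normalized counts in control and 139.9, 151 and 167 in DHT, with little spread in control (log2 fold change 0.82 ± 0.12 (SE), adjusted p = 0.00332, limma). Its partner chain *Col9a3* had 46.5, 37.2 and 31.5 in control and 41.1, 46.9 and 27.2 in DHT, and did not pass. *Col16a1* had 2238, 2407 and 2045 in control and 1506, 1746 and 1521 in DHT (log2 fold change -0.49 ± 0.07 (SE), adjusted p = 0.00357, limma). *Col12a1*, the most abundant of the class, had 5198, 6236 and 6692 in control and 6468, 6039 and 5619 in DHT, with equal means to 3 digits (log2 fold change 0.01, 95% confidence interval -0.19 to 0.20).

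*Col8a1*, a short-chain collagen of sheet-like networks, had 15371, 18487 and 21632 in control and 18151, 15531 and 15020.3 in DHT, with overlap (adjusted p = 0.379, limma). *Col10a1* (log2 fold change 0.05) also overlapped. The 3 transmembrane collagens had at most 41.1 normalized counts in any library, led by *Col23a1* with 29.7, 17.7 and 35.2 in control and 41.1, 33.8 and 38.1 in DHT (adjusted p = 0.311, limma). None of these 5 genes passed.

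Fibronectin and fibrillin-1 were lower in DHT. *Fn1*, the gene of the adhesive glycoprotein on which other matrix assembles, had 9304, 12092 and 10679.5 normalized counts in control and 6263, 6408 and 5656 in DHT. The lowest control library stood well above the highest DHT library. The mean fell to 0.571 times that of control (log2 fold change -0.80 ± 0.09 (SE), adjusted p = 0.000622, limma), and the log2 fold change lay between -0.90 and -0.71 in all alternatives. *Fbn1*, the main component of microfibrils, had 2697, 2723 and 2676 in control and 2092, 2229 and 1963 in DHT (log2 fold change -0.37 ± 0.05 (SE), adjusted p = 0.00197, limma). *Fbn2* had 3973, 4684 and 2647 in control and 3142, 3729 and 3611 in DHT and overlapped, with a wide range in control, and it passed without control replicate 3 (adjusted p = 0.0476, limma). *Eln* was at 19.6 to 75.1 normalized counts in every library and did not pass.

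Of the lysyl oxidases, *Loxl3* alone passed (20.0% higher, against 6.52% of all genes). It had 908, 1049 and 1047 normalized counts in control and 1876, 1894 and 2112 in DHT, a mean 1.96 times as high (log2 fold change 0.97 ± 0.07 (SE), adjusted p = 0.000102, limma). Its position in GRCm38 is chr6:83034173-83052562, where 535 bases (11.6%) of its exons overlap those of *Htra2* on the opposite strand. *Htra2* itself had a log2 fold change of 0.17 (adjusted p = 0.0505, limma), and the strand setting of the counting was not stated. *Lox*, the most abundant of the family, had 11792, 18278 and 20405 in control and 18471, 17108 and 16591 in DHT. Control replicate 1 was well under the other 2 control libraries, and the interval of the difference was wide (log2 fold change 0.08, 95% confidence interval -0.29 to 0.46). *Loxl2* had 7094, 9271 and 7123 in control and 7184, 7757 and 8546 in DHT, with equal means to 3 digits. *Loxl4* had 215, 192 and 210.3 in control and 124, 127 and 182 in DHT, lower in each DHT library but not past the threshold (adjusted p = 0.0605, limma; 0.0347 in DESeq2 and 0.0167 without DHT replicate 3). As a share of the lysyl oxidase transcripts per kb, *Loxl3* was 4.16 ± 0.558% in control and 7.57 ± 0.513% in DHT (SD, n = 3; exact permutation test, p = 0.1).

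Of the hydroxylases, *Plod2* alone passed (16.7% higher, against 6.52% of all genes). *Plod2*, which hydroxylates the lysines of collagen telopeptides, had 28298, 33150.3 and 34859 normalized counts in control and 43229, 40542 and 43529.6 in DHT, without overlap (log2 fold change 0.41 ± 0.07 (SE), adjusted p = 0.00825, limma). The call was lost in limma without the intensity trend (adjusted p = 0.0716). *Plod1*, which acts on lysines of the helix, had 1826, 1897 and 1795 in control and 1668, 1643 and 1678 in DHT, lower in each DHT library (log2 fold change -0.15, adjusted p = 0.0548, limma). It passed with a mean of at least 50 as the filter (0.0449), after quantile normalization (0.0426) and without control replicate 3 (0.0495). *Plod3* had 4172, 4255 and 4290.1 in control and 4125, 4061 and 3857 in DHT, also without overlap (adjusted p = 0.243, limma). The catalytic subunits of prolyl 4-hydroxylase, *P4ha1*, *P4ha2* and *P4ha3*, had log2 fold changes of -0.09, 0.22 and -0.15 and none passed. *P4ha2* was higher and *P4ha3* lower in each DHT library.

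*Col6a4*, *Col6a5* and *Col6a6* lie in a row on chromosome 9 and did not pass. Of the members that passed, *Fbn1* had the longest exon overlap with another gene, 2442 bases (20.1% of its exons) shared with *Gm9913* on the opposite strand, whose level was not analysed here. *Nid2* shares 437 bases (8.45% of its exons) with *Rtraf* on the opposite strand. The log2 fold change of *Rtraf* was -0.11 (adjusted p = 0.108, limma). *Plod2* shares 346 bases with *Gm38391*, which had a mean of 106 normalized counts in control and 119 in DHT. *Fn1* shares 292 bases with *Apol7d* and *Col4a3* 563 bases with *C430014B12Rik*, both at means of 10.2 to 22.6 normalized counts. *Nid1* shares 143 bases with *Gm48682* and *Col7a1* 36 bases with *Mir711*.

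Single libraries were the lowest of their group for many members. Control replicate 1 was the lowest control library for 34 of the 67 members (50.7%) and for 34.0% of all genes tested. DHT replicate 3 was the lowest DHT library for 30 members (44.8%) and for 34.3% of all genes. Without control replicate 1, *Lama4* no longer passed, though its log2 fold change was -0.58 in place of -0.57, and *Col5a2*, *Hspg2* and *Lamb1* were lower in DHT at an adjusted p of at most 0.05 in limma. The same 6 members were higher without it.

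Other genes of matrix assembly were taken from 6 lists, with 74 of 76 genes measured. Of these, 6 were higher (8.11%) and 9 lower (12.2%) in DHT, while 6.52% of all genes tested were higher and 4.66% lower. Their median log2 fold change was -0.08, beside -0.01 for all genes. None of the 18 genes of procollagen folding and secretion passed, among them the chaperone genes *Serpinh1* and *P4hb*, and 8 of the 18 (44.4%) had groups without overlap, as did 30.6% of all genes. Of the 8 genes that process procollagen ends, *Pcolce2* and *Pcolce*, enhancers of the C-propeptide proteinase, were higher and *Adamts2*, the N-propeptidase, was lower. *Pcolce2* had 412, 318 and 428 normalized counts in control and 653, 573 and 691 in DHT (log2 fold change 0.73 ± 0.12 (SE), adjusted p = 0.00498, limma). The log2 fold changes of *Pcolce* and *Adamts2* were 0.16 and -0.33.

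Of 13 elastic fibre and microfibril genes measured, *Efemp1* (fibulin-3) and *Fbln2* (fibulin-2) were lower and *Fbln5* (fibulin-5) was higher, or 15.4% and 7.69% of them, against 4.66% and 6.52% of all genes. *Efemp1* had 1654, 1437 and 1366 normalized counts in control and 661, 789 and 756 in DHT (log2 fold change -1.01 ± 0.09 (SE), adjusted p = 0.000199, limma), the largest fall in the lists among genes that passed. *Fbln5* had 1319.9, 1807 and 2188 in control and 2907, 2662 and 2719.6 in DHT (log2 fold change 0.67 ± 0.15 (SE), adjusted p = 0.0212, limma), again with its lowest value in control replicate 1. *Fbln2* had a log2 fold change of -0.57.

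Among 15 further basement membrane genes, 3 were lower (20.0%, against 4.66% of all genes) and 1 was higher (6.67%, against 6.52%). *Tinagl1*, a matricellular component of basement membranes, had 26345, 25021 and 27199 normalized counts in control and 20693, 21989 and 20955 in DHT (log2 fold change -0.30 ± 0.04 (SE), adjusted p = 0.003, limma). *Pxdn*, the peroxidase that forms the sulfilimine cross-links of collagen IV, had 13657, 14489 and 15619.9 in control and 12789, 12003 and 11470.3 in DHT (log2 fold change -0.27 ± 0.06 (SE), adjusted p = 0.018, limma). *Npnt* (nephronectin) was lower (-0.56) and *Hmcn1* (hemicentin-1) higher (0.82). Of the 12 small proteoglycans and matricellular genes measured, *Ogn* (osteoglycin) was lower (-0.40).

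Receptors for these ligands changed in both directions. *Dag1*, the gene of dystroglycan, which binds the globular domains of laminin alpha chains and perlecan, had 126706, 150459 and 150643 normalized counts in control and 185161, 193969 and 196404 in DHT (log2 fold change 0.43 ± 0.08 (SE), adjusted p = 0.00768, limma). *Sdc1* (syndecan-1) had 7044, 7644 and 8008 in control and 11254, 11497 and 12757 in DHT (log2 fold change 0.65 ± 0.06 (SE), adjusted p = 0.000339, limma). *Bcam*, a receptor for laminins with the alpha5 chain, had 2788, 3289 and 3808 in control and 2519, 2279 and 2283 in DHT (log2 fold change -0.47 ± 0.10 (SE), adjusted p = 0.0162, limma). *Ddr1*, a collagen receptor kinase, was lower by a small step (-0.20). The other 4 of the 8 receptors did not pass, and 2 of the 8 were higher and 2 lower (6.52% and 4.66% of all genes).

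**Figure D5:**
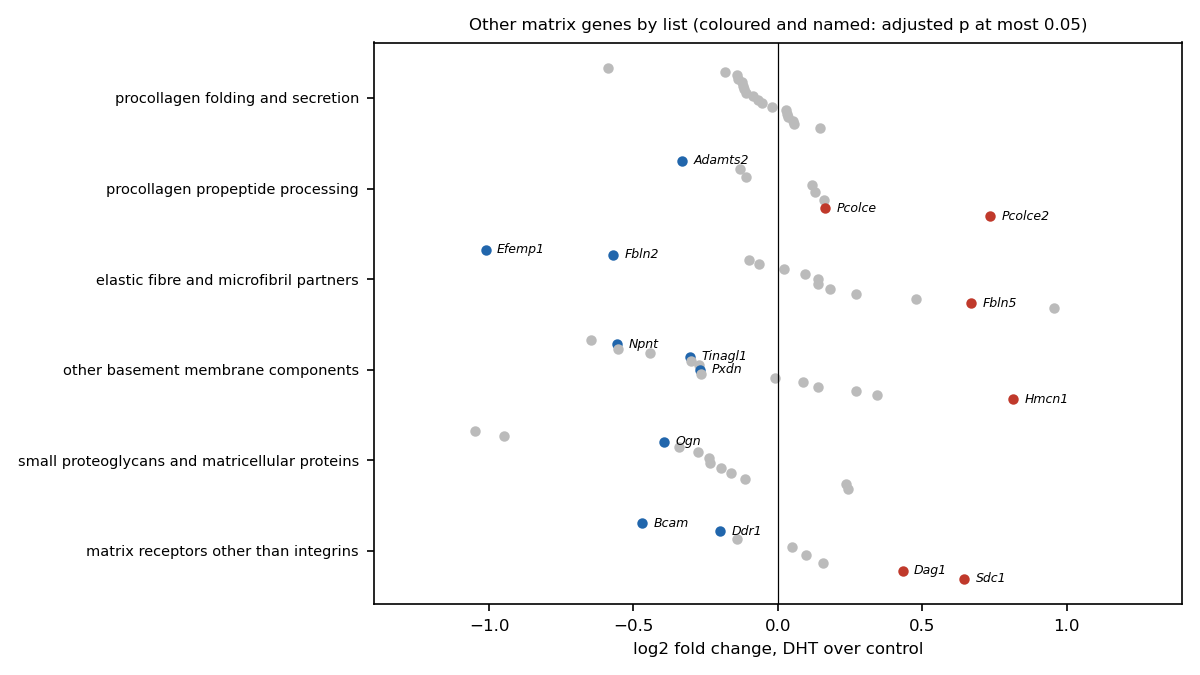
Log2 fold change (DHT over control) of 74 further matrix genes in 6 lists; the 15 coloured and named points had an adjusted p of at most 0.05 in limma, red for higher and blue for lower. *Efemp1* lies lowest of the named genes at -1.01 and *Hmcn1* highest at 0.82, and no gene of procollagen folding is coloured.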

How the data were processed

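RNA-seq was available for 6 libraries, 3 per group. Per the labels and methods, reads were trimmed (Trimmomatic 0.36), aligned to GRCm38 (STAR 2.5.2b) and assigned to genes by unique exonic reads (featureCounts of Subread 1.5.2). The signal deposited by the authors is the normalized count, that is, reads over a DESeq2 size factor. Dividing by the step of a library gave whole reads for 100% of its values (tolerance 1e-06). The 3 columns of the authors' own comparison (fold change, p and adjusted p) and a second table that repeats rows of the first were not used.

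Limma 3.58.1 (R 4.3.3) was run on log2(value + 1) with a trend of variance on level. Genes whose mean was at least 10 were kept, which left 16292, and p-values were adjusted over them by Benjamini-Hochberg. Intervals are 95% confidence intervals of that model. Totals, shares and ratios were compared by two-sided exact permutation tests. They were computed from the same counts as the tests of single genes and are not separate results. The alternatives were pseudocounts of 0.5 and 8, no filter, a mean of at least 50, TMM scaling, quantile normalization, no trend, the replicate number as a block, edgeR 4.0.16 (quasi-likelihood) and DESeq2 1.42.0 (Wald) on recovered reads, each library left out, and, for totals and ratios, TMM scaling and the longest transcript as length, which was also tried for levels after the data were seen. The fits were tested on simulated data.

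Exon lengths, positions and overlaps came from GENCODE M21 (GRCm38), in which all 67 members and 16259 of 16300 genes were found, and promoters from RefSeq (GRCm38.p6). The members and lists were chosen with earlier results of these data known. Values are given for every member with an adjusted p of at most 0.05, the highest member of each class, the chains of collagens I, IV and VI, members beside the fold threshold and, per list of other genes, up to 3 with the smallest adjusted p in each direction. Further members named in the text were chosen after their values were seen. One member is counted in the totals but not reported singly here.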

Additional observations from a re-analysis of the deposited data

How the results depend on the processing

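The counts of 6 members higher and 11 lower at an adjusted p of at most 0.05 came to 4 and 6 in limma without the intensity trend, to 6 and 11 in edgeR and to 7 and 14 in DESeq2. The shares of all genes higher and lower were 6.52% and 4.66% in limma, 3.08% and 1.86% without the trend, 6.56% and 4.57% in edgeR and 7.62% and 5.47% in DESeq2. Without the trend, Plod2, Col7a1, Col4a3, Col4a4, Lama4, Lamc1 and Nid2 did not pass, which left 0 called lower (adjusted p of Nid2 = 0.0555). Leaving out a library gave 5 to 7 higher and 8 to 13 lower members (3.57% to 7.59% and 2.15% to 5.26% of all genes), and 1 to 2 called higher, since Loxl3 passed the fold threshold without control replicate 2, control replicate 3 or DHT replicate 1. At the fold threshold, shares of all genes are given for the main fit only (0.908% higher and 0.399% lower). With the replicate block, 5 members were higher and 8 lower (3.89% and 2.19% of all genes), and Col7a1, Col4a3, Col4a4 and Lamc1 lost their call. Same-numbered libraries deviated from their group means with correlations of 0.0058, 0.067 and -0.24, so the number was not taken as a pairing; whether they shared an isolation was not stated. Of 1057 log2 fold changes of the 67 members with an adjusted p under the alternatives, 1014 kept their side of the threshold, 27 lost a call, 16 (of 9 members) gained one and none of a passing member changed sign. Quantile normalization turned the sign of Col4a1, which was not called (-0.13 in place of 0.03). Col18a1, Loxl3, Lama1, Col9a2, Fn1, Nid1, Col16a1, Col4a5, Col4a6 and Fbn1 passed under every alternative. With the longest transcript as length, 11 of 16 named levels moved by more than 1 SD of the control libraries, and the difference in the share of Lama1 was 2.61 percentage points in place of 2.03. Intervals were wide for members with few counts (-1.34 to 0.60 for Col17a1 and -0.68 to 0.79 for Col25a1, log2 fold change) and also for Lox (-0.29 to 0.46), and the part of depth in them was not tested. The cause of each lost call was not tested.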
